A study of Rattus norvegicus with 14 samples.

Results

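The genes described here encode Wnt ligands, their receptors and the secreted proteins that modulate them, measured in rat foreskin on postnatal day 5. They were chosen by gene symbol, as probe sets annotated with exactly 1 symbol that names a Wnt ligand, a Frizzled receptor, an R-spondin or Lgr receptor, a secreted inhibitor (Sfrp, Frzb, Dkk, Wif1 or Notum), or Axin2 or Lef1. In all, 43 of the 14497 genes tested met this rule. They comprised 17 Wnt ligands, 8 Frizzled receptors, 5 R-spondin and Lgr genes, 11 secreted inhibitors, and Axin2 with Lef1. Each was represented by 1 probe set. A further 6 genes whose symbols match the rule in RefSeq (Fzd7, Fzd10, Lgr6, Rspo4, Wnt7a and Wnt11) were not analysed here.

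The study compared 7 litters of Sprague Dawley rats whose dams received 5 mg/kg/day flutamide, an antiandrogen drug that blocks the androgen receptor, with 7 litters whose dams received corn oil, the vehicle. Both groups were dosed by oral gavage from gestational day 16 to 20, and the pups were killed on postnatal day 5. Each sample pooled RNA of 2 foreskins of 1 litter and was hybridised to 1 Affymetrix Gene 1.0 ST array, so n is the number of litters. Values are log2 array values after RMA, the usual method of background correction, normalisation and probe summary for these arrays. Correlations between arrays ran from 0.984 to 0.992 across genes, and the array medians from 5.63 to 5.70. Among markers of the labelled tissue, the suprabasal keratins Krt1 and Krt10 averaged 11.97 and 12.34 in flutamide litters and the collagen gene Col1a1 9.08. The hair follicle keratins Krt25 and Krt27 averaged 8.39 and 8.62 there, and the follicle genes Dsg4 and Foxn1 5.72 and 6.13. With no threshold and no other tissue to compare, these values do not test the label. Values of different probe sets depend on the probes as well as on the transcript, so no order of abundance between genes is drawn from them, and no gene was called present or absent.

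Wnt proteins are secreted lipid-modified ligands that bind Frizzled receptors, with Lrp5 or Lrp6 as co-receptors in the canonical branch. Binding there halts the destruction of beta-catenin, which enters the nucleus and works with Lef1 and other Tcf factors to turn on targets such as Axin2. R-spondins strengthen the signal through Lgr receptors, while Sfrp proteins, Frzb and Wif1 bind the ligands, most Dkk proteins block the co-receptors and Notum removes the ligands' lipid. In the skin of mice this pathway starts hair follicles, and in the mouse genital tubercle it takes part in outgrowth and in the masculinisation of the urethra.

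No gene of the 43 rose or fell at an adjusted p under 0.05 by limma's moderated test, adjusted after Benjamini and Hochberg over all 14497 genes, where 0.00690% of all genes were called. The smallest adjusted p of a Wnt gene was 0.413. At an unadjusted limma p under 0.05 there were 7 of the 43, against 9.16% of all genes. Of these, 5 had higher values in flutamide litters (Dkk3, Wnt10b, Wnt5a, Wnt9a and Fzd9; 5.70% of all genes) and 2 had lower values (Lgr5 and Dkk2; 3.46% of all genes). After centring every array on its median, 2 genes were higher and 2 lower at that threshold. Centring moved the median difference of all genes to -0.0004. The share of all genes at that threshold in the centred fit is not given here, so the lower count is not read as particular to Wnt genes. The flutamide and corn oil litters overlapped for every one of the 43 genes, while 0.124% of all genes did not overlap.

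The differences were small and their intervals narrow. The 95% confidence interval of the difference lay within 1.5-fold in either direction for all 43 genes, as for 99.3% of all genes, and within 1.2-fold for 34 of them (79.1%, against 70.1% of all genes). The farthest ends of these intervals were -0.41 for Dkk2 and 0.36 for Dkk3 on the log2 scale. The median difference over the 43 genes was 0.012, with 24 above 0 and 19 below. Over all genes it was 0.0048, with 52.3% above 0.

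**Figure D1:**
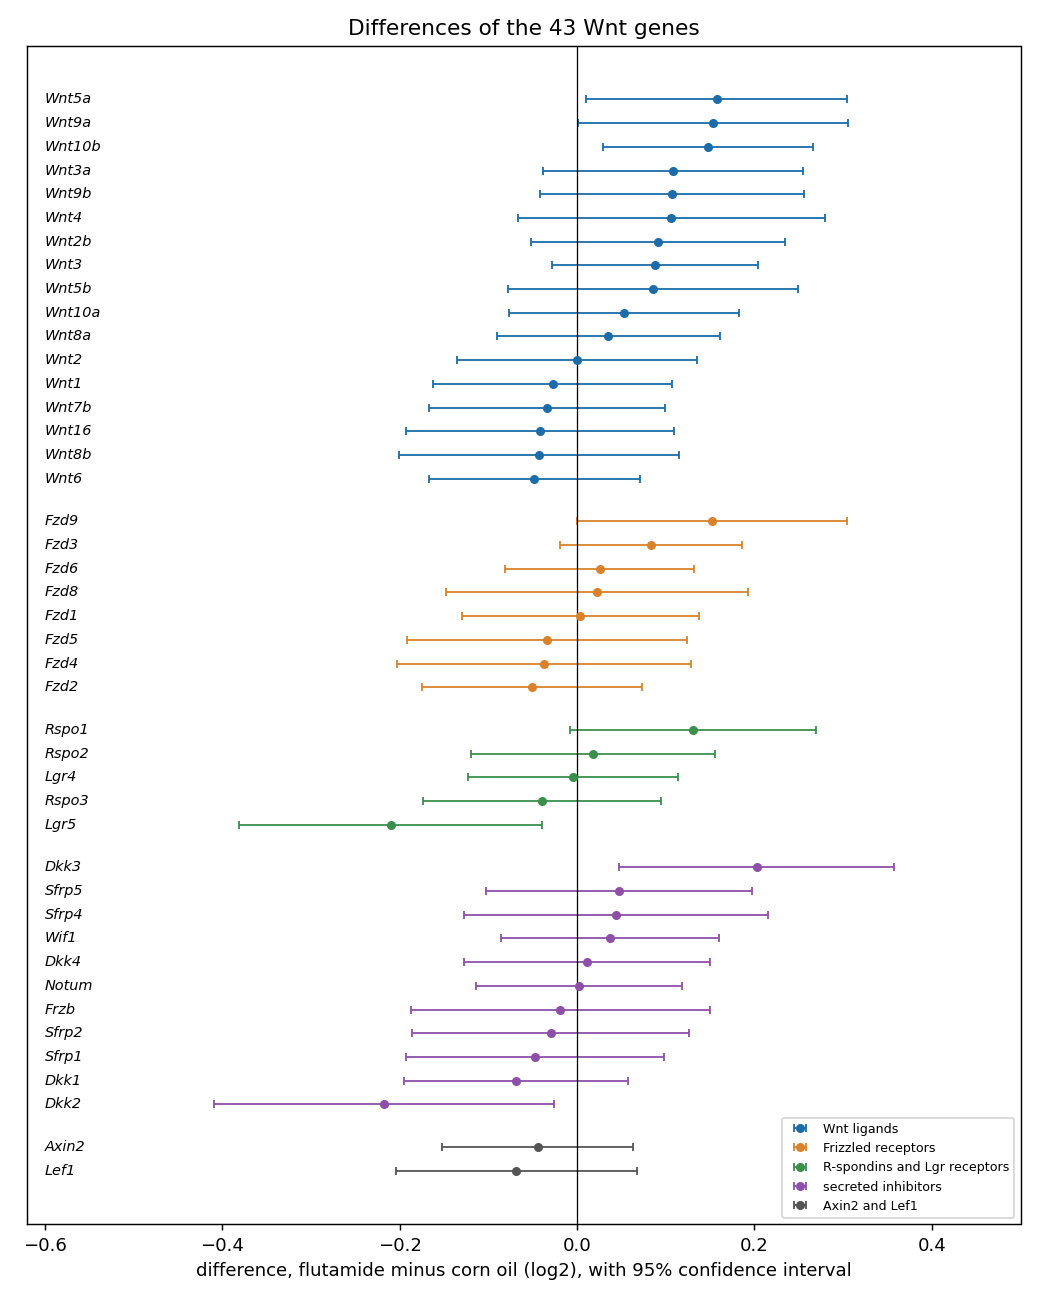
Difference between flutamide and corn oil litters (log2, x axis) for each of the 43 genes, one row per gene, with points for the difference and bars for limma's 95% confidence interval; colours mark the 5 classes. Intervals of 7 genes exclude 0 without adjustment, and every interval lies between -0.41 and 0.36.

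Among the ligands, 11 of 17 had values above 0 and 6 below, and none passed the test. The median ligand difference was 0.086, against 0.0048 over all genes. Dim genes as a whole had slightly higher values in flutamide litters (the median difference was 0.048 in the dimmest decile), and the genes in the same deciles of array level as the ligands had a median difference of 0.0079 on average, with 53.2% above 0. The size of the ligand median depended on single litters, being 0.047 without flutamide replicate 7 and 0.0545 without corn oil replicate 4. Flutamide replicate 7 had the lowest SD of array values, 1.68, and corn oil replicate 1 the highest, 1.76. Without both arrays the ligand median was 0.032, and with the array SD as a covariate it was 0.044. In each of these fits 12 of 17 ligands were above 0, against 52.8% and 52.95% of all genes.

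**Figure D2:**
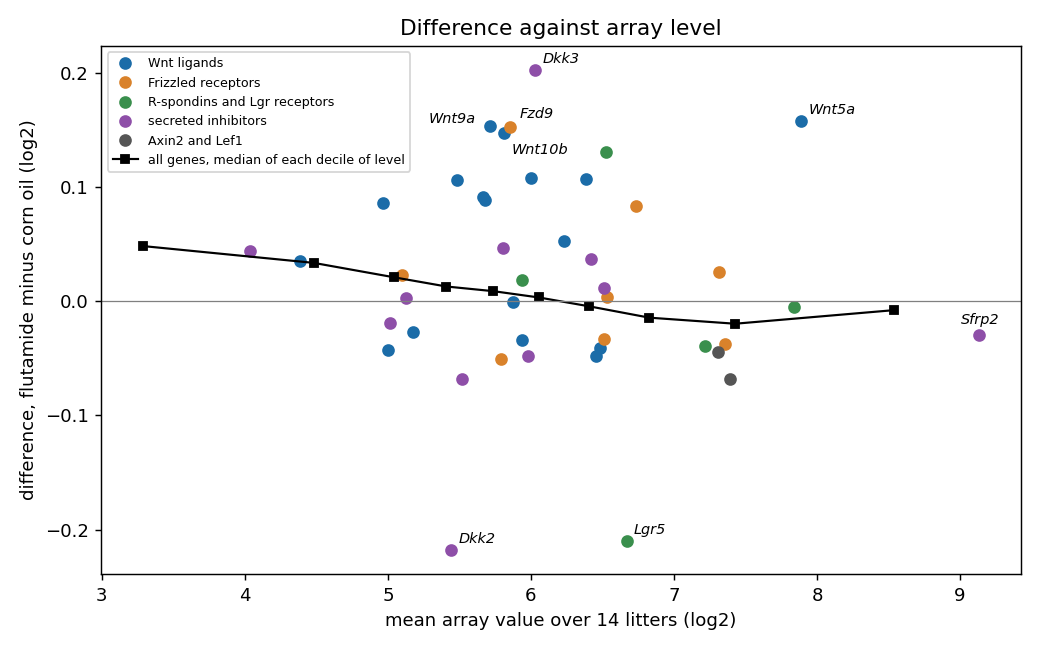
Difference between flutamide and corn oil litters (log2, y axis) against the mean array value over all 14 litters (log2, x axis) for the 43 genes, coloured by class; black squares give the median difference of all genes in each decile of level. The medians of all genes lie between -0.020 and 0.048, while the ligands run from -0.05 to 0.16.

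Wnt10b, a canonical ligand of early hair follicle placodes in mice, ran from 5.70 through a median of 5.91 to 6.003 in flutamide litters, and from 5.62 through 5.75 to 5.80 in corn oil litters. Thus 6 of 7 flutamide litters lay above every corn oil litter, and flutamide replicate 1 lay among them. The difference was 0.15 (SE 0.06), a 1.11-fold level, with a limma adjusted p of 0.438. Wnt5a, a largely non-canonical ligand needed for outgrowth of the genital tubercle in mice, ran from 7.81 through 7.95 to 8.32 in flutamide litters, and from 7.67 through 7.83 to 7.89 in corn oil litters. Its highest value belonged to flutamide replicate 6, and 4 flutamide litters exceeded all corn oil litters. The difference of 0.16 (SE 0.07; limma adjusted p = 0.516) was 0.10 without that litter.

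Wnt9a, a canonical ligand known from joint and cartilage development, ran from 5.57 through 5.79 to 6.12 in flutamide litters, and from 5.48 through 5.65 to 5.77 in corn oil litters. Flutamide replicate 7 was the highest, and the groups overlapped in the lower part of the range. The difference was 0.15 (SE 0.07; limma adjusted p = 0.542), or 0.10 without that litter. The other 14 ligands lay between -0.05 and 0.11, 8 above 0 and 6 below, with limma adjusted p from 0.660 to 1.00. They include Wnt16, which differed by -0.04 (SE 0.07), and Wnt10a, a ligand of hair and tooth development, which differed by 0.05 (SE 0.06).

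Several ligand genes lie side by side in the rat genome. In RefSeq's GRCr8 assembly 4 pairs of the ligands have no other protein-coding gene between them. Wnt3a and Wnt9a on chromosome 10 differed by 0.11 and 0.15, and Wnt9b and Wnt3 on the same chromosome by 0.11 and 0.09. On chromosome 7, Wnt10b and Wnt1 differed by 0.15 and -0.03, and on chromosome 9, Wnt6 and Wnt10a differed by -0.05 and 0.05. Both members were above 0 in 2 pairs and of opposite sign in the other 2, with none of the 8 passing the test.

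Frizzled receptors span the membrane and bind the ligands outside the cell. Of the 8 measured, 5 were above 0 and 3 below, with a median difference of 0.013. Fzd9 ran from 5.66 through 5.95 to 6.07 in flutamide litters, and from 5.54 through 5.82 to 5.96 in corn oil litters. Flutamide replicate 6 was the low value, and 3 flutamide litters exceeded all corn oil litters. The difference was 0.15 (SE 0.07; limma adjusted p = 0.544), or 0.10 once both ends of array spread, named above, were left out.

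The other 7 receptors lay between -0.05 and 0.08. Fzd6, which orients hair follicles in mice, averaged 7.33 ± 0.08 in flutamide and 7.30 ± 0.04 in corn oil litters (SD, n = 7 each), a difference of 0.03 (SE 0.05). Fzd4, a receptor of vessel growth, averaged 7.34 ± 0.11 in flutamide and 7.37 ± 0.19 in corn oil litters (SD, n = 7 each). Fzd3, which acts in axon guidance, differed by 0.08 (SE 0.05; limma adjusted p = 0.630). Its pooled SD between litters, 0.057, was the smallest of the 43 genes, and 0.8% of all genes had a smaller one.

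**Figure D3:**
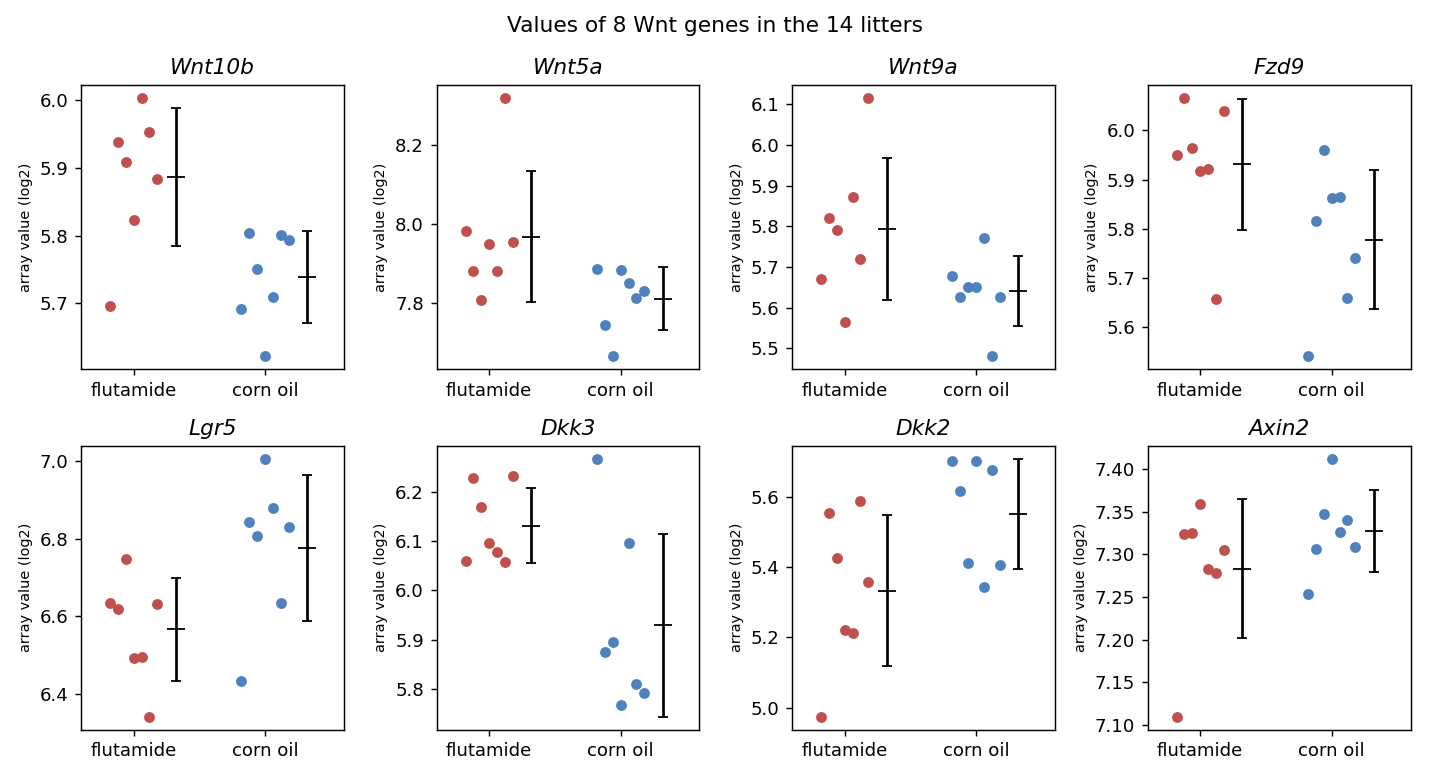
Array values (log2, y axes) of 8 genes in each litter, with flutamide litters in red on the left and corn oil litters in blue on the right of each panel; the black bar gives the mean and SD (n = 7). The groups overlap in every panel, by 1 flutamide litter for Wnt10b and by corn oil replicates 1 and 5 for Dkk3.

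Lgr5, an R-spondin receptor that marks stem cells of the cycling hair follicle in mice, ran from 6.34 through 6.62 to 6.75 in flutamide litters, and from 6.43 through 6.83 to 7.01 in corn oil litters. All 7 flutamide litters lay below the corn oil median, and 5 corn oil litters lay above the highest flutamide litter. The difference was -0.21 (SE 0.08), a 0.864-fold level, with a limma adjusted p of 0.445. Corn oil replicate 1 was the low control, and without it the difference was -0.27. The hair follicle marker list was also lower in mean in flutamide litters, by -0.15, with 6 of its 7 measured genes (of 9 listed) lower. Its list mean ran from 6.79 to 7.02 in flutamide and from 6.83 to 7.19 in corn oil litters. This was not particular to the follicle. List means differed by -0.22 for smooth muscle, -0.17 for skeletal muscle, -0.15 for adipocyte and -0.11 for endothelium markers. All measured genes of the smooth muscle, skeletal muscle and endothelium lists were lower, 6, 4 and 4 of them. Of the 3 adipocyte genes, Fabp4 differed by -0.43, Plin1 by -0.03 and Adipoq by 0.02. The basal and cornified keratinocyte lists differed by -0.05 and -0.01. Fibroblast, dermal papilla, and bone and cartilage lists were higher, by 0.01, 0.01 and 0.11. The relation of Lgr5 to the follicle list across litters is given with the correlations. In these bulk samples fewer cells of a type and less RNA per cell cannot be told apart.

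The other genes of this arm had smaller differences, none passing. Lgr4, the related receptor, averaged 7.84 ± 0.09 in flutamide and 7.84 ± 0.08 in corn oil litters (SD, n = 7 each), a difference of -0.0046 with an interval from -0.12 to 0.11. Rspo1 ran from 6.40 through 6.60 to 6.75 in flutamide litters, and from 6.33 through 6.48 to 6.58 in corn oil litters. Its difference of 0.13 (SE 0.07) had a limma adjusted p of 0.569. Rspo3, needed for vessel development in mice, differed by -0.04 (SE 0.06), and Rspo2, which is expressed in the dermal papilla of mice, by 0.02 (SE 0.07).

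The 2 inhibitors with the smallest p-values were both Dickkopf genes and pointed in opposite directions. Dkk3, a divergent Dickkopf protein that does not block the Lrp co-receptors as Dkk1 does, ran from 6.06 through 6.10 to 6.23 in flutamide litters, and from 5.77 through 5.88 to 6.27 in corn oil litters. All flutamide litters lay above the corn oil median, and 5 corn oil litters lay below every flutamide litter, while corn oil replicate 1 was the highest of all. The difference was 0.20 (SE 0.07), a 1.15-fold level, with a limma adjusted p of 0.413, and it was 0.26 without corn oil replicate 1. Dkk2, which binds the Lrp co-receptors, ran from 4.97 through 5.36 to 5.59 in flutamide litters, and from 5.34 through 5.62 to 5.70 in corn oil litters. In this case 4 corn oil litters lay above every flutamide litter, and flutamide replicate 1 was the lowest. The Dkk2 difference of -0.22 (SE 0.09), a 0.860-fold level, had a limma adjusted p of 0.490.

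Dkk1 and Dkk4, the other Dickkopf genes, differed by -0.07 (SE 0.06) and 0.01 (SE 0.07). Of the 11 secreted inhibitors, 6 were above 0 and 5 below, with a median of 0.0025, and the 9 beside Dkk3 and Dkk2 lay between -0.07 and 0.05. The ligand-binding Sfrp2 averaged 9.12 ± 0.16 in flutamide and 9.15 ± 0.12 in corn oil litters (SD, n = 7 each), a difference of -0.03 (SE 0.07; limma adjusted p = 0.942). Wif1, which binds Wnt proteins directly, differed by 0.04 (SE 0.06), Frzb by -0.02 (SE 0.08) and Notum by 0.0025 (SE 0.06).

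Axin2, a target of the pathway, and Lef1, a nuclear factor that works with beta-catenin, were both lower in mean in flutamide litters. Neither passed. Both lie in decile 9 of array level, counted from the dimmest. Most genes of that decile were lower too, with 38.3% above 0 and a median difference of -0.020. Axin2, a feedback inhibitor of beta-catenin, ran from 7.11 through 7.30 to 7.36 in flutamide litters, and from 7.25 through 7.33 to 7.41 in corn oil litters. The groups overlapped, with flutamide replicate 1 below every corn oil litter. The difference was -0.04 (SE 0.05), with an interval from -0.15 to 0.06, and -0.016 without that litter. Lef1 ran from 7.18 through 7.36 to 7.53 in flutamide litters, and from 7.25 through 7.46 to 7.50 in corn oil litters. Its difference was -0.07 (SE 0.06), with an interval from -0.20 to 0.07, and -0.04 without flutamide replicate 3. The limma adjusted p was 0.835 for Axin2 and 0.792 for Lef1.

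The promoters of these 2 genes and of the ligands Wnt5a and Wnt9a are shown as examples, chosen with their motifs known. Axin2 and Lef1 carry the core of the Tcf and Lef1 motif and these 2 ligands do not. That contrast does not hold for the classes, as the ligands Wnt3, Wnt8a and Wnt8b carry the core too. Promoters from RefSeq (GRCr8) were found for 29 of the 43 genes, taken here as the 250 bases before the start. The Wnt10b, Lgr5, Dkk3 and Dkk2 promoters are not among them. Each sequence reads 5′ to 3′ on the gene's strand. Capitals mark CTTTG, the core of the Tcf and Lef1 motif, and GGGCGG, the GC box, on either strand, where CAAAG and CCGCCC are the reverse forms.
Axin2 (chr10:94398535-94398784, + strand): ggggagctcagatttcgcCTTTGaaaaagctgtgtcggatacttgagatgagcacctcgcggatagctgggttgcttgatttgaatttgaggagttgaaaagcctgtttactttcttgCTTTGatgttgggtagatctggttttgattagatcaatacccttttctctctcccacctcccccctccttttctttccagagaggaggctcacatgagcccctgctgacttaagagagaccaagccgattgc
Lef1 (chr2:222340463-222340712, + strand): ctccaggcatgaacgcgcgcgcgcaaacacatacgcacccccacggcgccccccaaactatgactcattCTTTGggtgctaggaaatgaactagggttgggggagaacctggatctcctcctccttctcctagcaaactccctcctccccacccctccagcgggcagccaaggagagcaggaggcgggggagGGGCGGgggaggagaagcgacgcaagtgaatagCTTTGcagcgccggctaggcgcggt
Wnt5a (chr16:3703415-3703664, + strand): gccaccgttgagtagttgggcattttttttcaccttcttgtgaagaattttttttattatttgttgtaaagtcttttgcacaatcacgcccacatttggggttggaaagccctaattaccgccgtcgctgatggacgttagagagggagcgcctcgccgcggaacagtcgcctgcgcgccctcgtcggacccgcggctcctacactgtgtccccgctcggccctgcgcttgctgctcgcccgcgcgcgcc
Wnt9a (chr10:44593441-44593690, + strand): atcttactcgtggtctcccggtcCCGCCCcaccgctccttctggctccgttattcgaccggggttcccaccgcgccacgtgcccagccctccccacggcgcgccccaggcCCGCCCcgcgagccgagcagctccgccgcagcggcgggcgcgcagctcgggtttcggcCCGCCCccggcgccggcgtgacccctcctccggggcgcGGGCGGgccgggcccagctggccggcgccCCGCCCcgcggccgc

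The Axin2 promoter held CTTTG 2 times, 1 of them within the longer form CTTTGAT, and had no GC box. Lef1 held CTTTG 2 times and 1 GC box, Wnt9a 5 GC boxes, and Wnt5a neither motif. CTTTG occurred in 10 of the 29 promoters (34.5%), against 48.1% of the 27457 rat promoters in the table. CTTTGAT, which contains CTTTG, occurred in Axin2 alone, 3.45% of the 29, against 3.18% of all. TGTTCT, a half-site bound by the androgen receptor, occurred in 1 promoter, that of Wnt8b (3.45%, against 17.1% of all), and its full palindrome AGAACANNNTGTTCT in none (0.00364% of all). The GC box was in 15 (51.7%, against 32.4%). The median GC content of the 29 was 63.6%, against 52.0% of all promoters.

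The wider pathway was read from a separate list. Of 62 listed co-receptors, ligand-handling proteins, destruction complex and cytoplasmic members, nuclear partners, planar polarity genes and textbook targets, 50 were measured and none passed limma's test after adjustment. At an unadjusted limma p under 0.05 there were 2 (4%, against 9.16% of all genes). Both were lower, as were 3.46% of all genes at that threshold. Of the 50, 24 were above 0 (48%, against 52.3% of all genes) and 26 below. Their median difference was -0.0050. Ctnnb1, the beta-catenin gene, averaged 8.54 ± 0.14 in flutamide and 8.54 ± 0.12 in corn oil litters (SD, n = 7 each). The co-receptor gene Lrp6 differed by 0.04 (SE 0.06), and the targets Ccnd1 and Myc by -0.03 (SE 0.06) each.

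The 4 of these genes with the smallest p-values all belong to the planar polarity branch, in which Frizzled signals orient cells within a sheet. The branch did not move as a whole: of 6 genes measured (of 8 listed), 3 were above 0 and 3 below. Vangl2 and Prickle1, not among those 4, differed by 0.04 (SE 0.05) and 0.03 (SE 0.06). The scaffold gene Prickle2 averaged 6.36 ± 0.19 in flutamide and 6.58 ± 0.11 in corn oil litters (SD, n = 7 each), a difference of -0.22 (SE 0.08; limma adjusted p = 0.376). Vangl1, a membrane protein of the same complex, averaged 6.78 ± 0.12 in flutamide and 6.96 ± 0.10 in corn oil litters (SD, n = 7 each), a difference of -0.17 (SE 0.06; limma adjusted p = 0.399). Daam1, a formin downstream of Dishevelled, differed by -0.16 (SE 0.07; limma adjusted p = 0.544), or -0.10 without corn oil replicate 4, and the cadherin gene Celsr2 by 0.12 (SE 0.06; limma adjusted p = 0.574). All 4 skeletal muscle markers and all 6 smooth muscle markers measured were also lower in mean in flutamide litters, with differences in list mean of -0.17 and -0.22. The smooth muscle list mean ran from 6.94 to 7.26 in flutamide and from 7.08 to 7.43 in corn oil litters, and its part in the differences of Prickle2, Vangl1 and Daam1 was not tested.

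Averaged within a class, the litters differed by little. Each gene was set against its own mean over the 14 litters, and the deviations were averaged per litter. For the ligands these class means ran from -0.026 to 0.15 in flutamide litters, where replicate 7 was the highest and replicate 6 next at 0.050, and from -0.068 to 0.038 in corn oil litters. For Axin2 and Lef1 together they ran from -0.16 to 0.057 in flutamide and from -0.099 to 0.087 in corn oil litters, with flutamide replicate 1 lowest. The groups overlapped in all 5 classes. The pooled SD between litters was 0.118 for the median Wnt gene, against 0.138 for the median of all genes, and was largest for Dkk2, at 0.189.

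**Figure D4:**
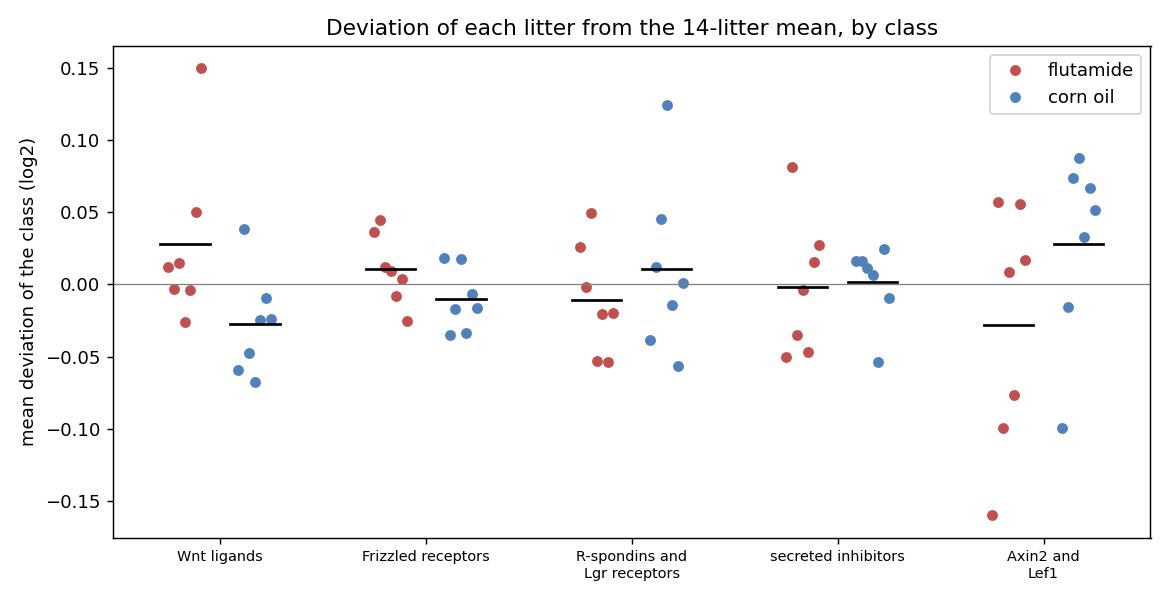
Mean deviation of each class from the mean of the 14 litters (log2, y axis), one point per litter, with flutamide in red left of corn oil in blue for each class; bars are group means. The ligand point at 0.15 is flutamide replicate 7, and the groups overlap in all 5 classes.

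Because hair follicles are a main site of Wnt signalling in newborn skin, 9 relations between litters were examined, each on deviations from the group mean over 14 litters with 100000 permutations within groups (two-sided), adjusted over the 9. None passed. Lef1 was the closest to the hair follicle marker mean, with a Pearson r of 0.68 (permutation p = 0.00873, adjusted 0.0786) and a Spearman rho of 0.73 (permutation p = 0.00687, adjusted 0.0618). Within groups its r was 0.78 in flutamide and 0.64 in corn oil litters, and without the 2 litters farthest from the median, flutamide replicate 1 and corn oil replicate 1, it was 0.49. Wnt10a had an r of 0.53 (permutation p = 0.0870, adjusted 0.309) and a rho of 0.48 (permutation p = 0.100, adjusted 0.451). Its r was 0.25 without those litters, 0.81 within flutamide and 0.48 within corn oil litters.

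Lgr5 had an r of 0.45 with the follicle markers (permutation p = 0.137, adjusted 0.309; rho 0.18, permutation p = 0.549, adjusted 0.767). It was -0.20 within flutamide and 0.80 within corn oil litters, a difference that was not tested, and 0.18 without the 2 farthest litters. Wnt10b had an r of 0.42 (permutation p = 0.134, adjusted 0.309; rho 0.37, permutation p = 0.217, adjusted 0.650), which was 0.14 without them. Axin2 had an r of 0.34 (permutation p = 0.226, adjusted 0.407; rho 0.14, permutation p = 0.644, adjusted 0.767), and this rests on the same 2 litters, since without them it was -0.45. Axin2 with Lef1 gave an r of 0.36 (permutation p = 0.290, adjusted 0.435; rho 0.19, permutation p = 0.531, adjusted 0.767), or 0.43 when corn oil replicate 1 and flutamide replicate 3 were left out.

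The inhibitors showed no closer relation. Dkk3 had an r of -0.25 with the follicle markers (permutation p = 0.472, adjusted 0.531) and a rho of -0.05 (permutation p = 0.885, adjusted 0.885). Its r was 0.30 without the 2 farthest litters. Within groups, a contrast that was not tested, its r was 0.58 in flutamide and -0.52 in corn oil litters. With the smooth muscle markers its r was -0.17 (permutation p = 0.618, adjusted 0.618) and its rho -0.16 (permutation p = 0.606, adjusted 0.767). That r was 0.19 within flutamide and -0.32 within corn oil litters. It was -0.49 when corn oil replicate 6 and flutamide replicate 2 were left out. Sfrp2 had an r of 0.24 with the smooth muscle markers (permutation p = 0.417, adjusted 0.531) and a rho of 0.13 (permutation p = 0.682, adjusted 0.767). Its r was 0.11 without the same 2, 0.59 within flutamide and -0.18 within corn oil litters.

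**Figure D5:**
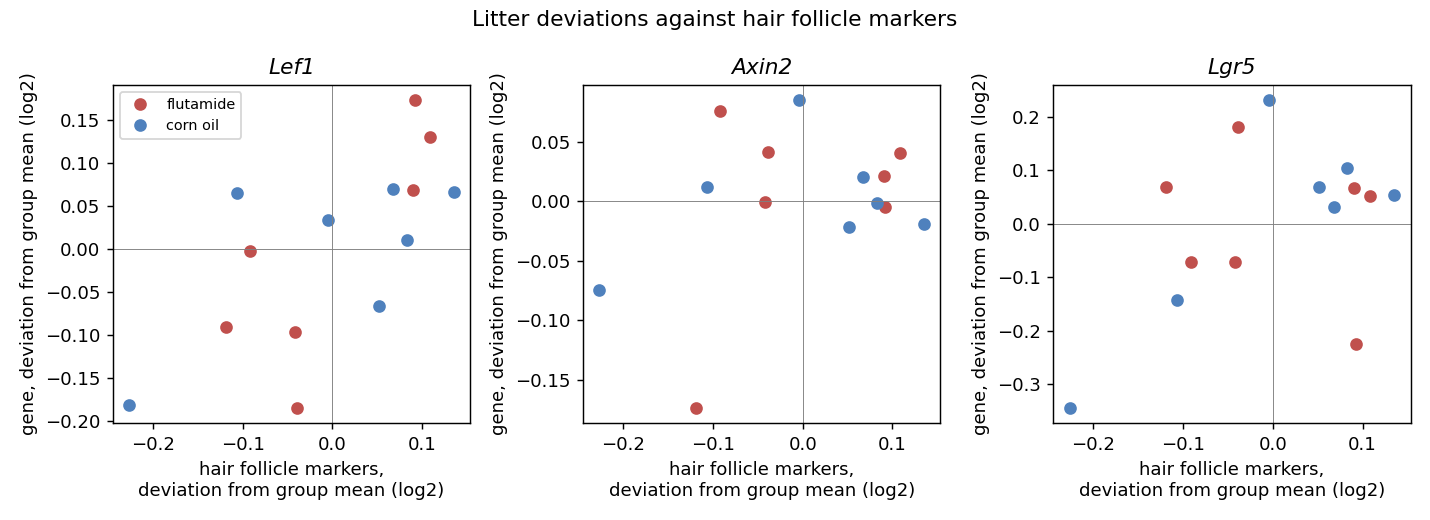
Deviation of Lef1, Axin2 and Lgr5 from the group mean (log2, y axes) against that of the mean of 7 hair follicle markers (log2, x axis), with flutamide litters in red and corn oil litters in blue. Lef1 had an r of 0.68 with the markers, which did not pass (permutation p adjusted over 9 relations = 0.0786). Without flutamide replicate 1 and corn oil replicate 1, the 2 lowest litters on the x axis, it was 0.49. For Axin2 the r of 0.34 rests on the same 2 litters.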

How the data were processed

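RNA of 14 foreskin pools was labelled with the NuGEN Applause WT-Amp ST and Encore biotin kits, per the labels' protocols. The authors deposited log2 values of 28826 probe sets, made with RMA per the submitters' processing notes; for its version, summary level and genome build: not given in the sources used here. That they are log2 follows from their range, 0.669 to 13.8.

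The 15209 probe sets with 1 symbol in GEO's platform annotation were used, the brightest per gene, and 14471 of the 14497 genes matched RefSeq by gene number. Groups were compared with limma 3.58.1 (R 4.3.3), two-sided, with p-values adjusted after Benjamini and Hochberg over all genes and a threshold of 0.05. The fit was tested on simulated data in which every planted change was larger than any difference of the 43 genes. That test does not show whether differences of the size reported here would be called. The number of arrays limits the precision, with standard errors of 0.049 to 0.091 for the 43 genes. Alternatives were other filters, summaries, scalings, variance models, a replicate block and each litter left out. The fits without 2 arrays and with array SD were added after the data were seen.

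Genes, lists and tests were chosen with earlier results of these data known. Named genes were Dkk3, Wnt10b, Lgr5, Axin2, Lef1, Wnt5a, Wif1, Notum and Frzb, the 2 brightest and the smallest p of each class, all at an unadjusted p under 0.05, and the pathway genes with the 4 smallest p. Others were named after their values were seen.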

Additional observations from a re-analysis of the deposited data

Results flagged for a closer look

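In 7 of the 86 combinations of a Wnt gene and a group, 1 litter stood apart from the other 6 by Dixon's criterion (the gap as a share of the group's range, at the 95% critical value), where chance gives about 1 in 20, or 4.3. Flutamide replicate 1 was low for Axin2, at 7.11 with the others from 7.28 to 7.36, and for Sfrp4, at 3.81 with the others from 4.02 to 4.18. Flutamide replicate 6 was low for Fzd9, at 5.66 with the others from 5.92 to 6.07, and high for Wnt5a, at 8.32 with the others from 7.81 to 7.98. Flutamide replicate 5 was low for Fzd4, at 7.09 with the others from 7.32 to 7.43. Corn oil replicate 1 was low for Frzb, at 4.68 with the others from 4.99 to 5.20, and corn oil replicate 4 was high for Wnt1, at 5.29 with the others from 5.13 to 5.20.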

How the results depend on the processing

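None of the 43 Wnt genes and none of the 50 other pathway genes passed limma's test under any of the 25 alternatives, with adjusted p down to 0.291 and 0.23. With the replicate number as a block the counts called were 0 and 0; the deviations of same-numbered litters correlated at -0.07 to 0.15, above 0.1 for 1 of 7 numbers. Wnt genes at an unadjusted p under 0.05 numbered 7, and 3 of 24 above the median level, 4 with arrays centred on their medians, 9 after quantile normalization and 4 to 8 with single litters left out. The pathway genes numbered 2, and up to 4 without both ends of array spread and 5 without corn oil replicate 6. The share of all genes at that threshold is given for the main fit only, at 9.16%. Changes in these counts between fits are therefore not read as particular to the Wnt or pathway genes. The ligand median of 0.086 was 0.032 without both ends of array spread and between 0.047 and 0.095 with 1 litter left out.

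The other class medians moved from their reported values by less than the SD between litters, running from -0.0024 to 0.029 for Frizzled receptors, -0.015 to 0.024 for R-spondin and Lgr genes, -0.019 to 0.016 for inhibitors and -0.085 to -0.033 for Axin2 with Lef1. Among the genes named by rule, signs changed for those near 0. Dkk4 was -0.0033 with array weights, Fzd4 0.0084 without both ends of array spread, and Lgr4 0.017 after quantile normalization, 0.016 without both ends and 0.024 with array SD as a covariate. Notum was -0.0027 when centred, -0.011 after quantile normalization, -0.012 with array weights, -0.017 without both ends and -0.0099 with array SD. With single litters left out, Dkk4 ran from -0.0245 to 0.0375, Frzb from -0.077 to 0.0146, Fzd4 from -0.0675 to 0.0162, Lgr4 from -0.0325 to 0.0229, Notum from -0.0214 to 0.0222 and Sfrp2 from -0.0746 to 0.0138. Without the 2 farthest litters, correlations with the follicle markers were -0.45 for Axin2, 0.30 for Dkk3, 0.25 for Wnt10a, 0.14 for Wnt10b and 0.18 for Lgr5, and that of Dkk3 with smooth muscle -0.49. The cause was not tested.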
